A study of Mus musculus with 24 samples.

Results

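The genes described here are the chaperones of the endoplasmic reticulum (ER) and the unfolded protein response, a list of 34 genes chosen by name for their known roles, among 12393 genes on the array. All 34 had a probe set on the array, and 33 were tested. Gene expression was measured in choroid plexus, which lines parts of the brain ventricles and makes cerebrospinal fluid. The 24 arrays came from C57BL mice aged 78 weeks, each carrying a humanized Apoe gene by knock-in, so that every group, the ApoE3 mice included, made a human form of apolipoprotein E. The 4 groups of 6 arrays were ApoE4 mice on a high-fat diet, ApoE3 mice on a high-fat diet, ApoE4 mice on normal chow and ApoE3 mice on normal chow, and each group held 3 males and 3 females. Laser capture, by which chosen areas are cut out of tissue sections under a microscope, was used to collect it from fresh-frozen tissue, and the sources used here do not say how those areas were chosen. The labels do not say whether each array is a separate animal, and p-values therefore measure only the spread between these samples, which may be technical. A signal is the deposited linear intensity of a probe set, and a log2 difference is the fitted difference of log2(signal + 16) between groups ± its standard error (SE). Genes passed at an adjusted p under 0.05 in limma after Benjamini-Hochberg adjustment over all 8261 genes tested.

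Proteins bound for secretion or for membranes enter the ER through the Sec61 channel, are folded there by chaperones, foldases and lectins, and are drawn back out for destruction when they fail to fold. When unfolded proteins gather, the sensors Ern1 (IRE1), Eif2ak3 (PERK) and Atf6 raise the output of chaperones and of the degradation machinery, in part through the spliced transcription factor Xbp1, and lower the load of new protein. The choroid plexus epithelium is a secretory tissue and exports large amounts of transthyretin.

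Many ER chaperone genes are known to share a promoter motif, the ER stress response element, bound by Atf6 with the general factor NF-Y. RefSeq promoter windows (GRCm38.p6, 250 bases before to 50 after each gene's start) were at hand for 29 of the 34 genes. Those of Atf6, Sec61a1, Manf, Derl1 and Hyou1 were not among them. The element, CCAAT and CCACG with 9 bases of any kind between them, was searched on both strands and found in 8 of the 29 (27.6%), against 0.137% of 27025 genes. Since this element is known from such chaperone genes, the count is a description of the list. The shorter element II, ATTGG and CCACG with 1 base between them, was found in 2 of 29 (6.9%), against 0.0444% of all genes. The XBP1 element TGACGTGG was in 0 of 29 windows and in 0.714% of all genes, and the letters CCACG, which are also part of both ER stress elements, were in 24 of 29, against 35.5%. The window of Hspa5 is shown in full because Hspa5 is the chaperone that the rest of the list is set against further on, and the others show what the element looks like in the genes that carry it. Capitals mark the fixed letters of the element, and all sequences run 5′ to 3′ on the gene's strand.
Hspa5, chr2:34771840-34772139, + strand: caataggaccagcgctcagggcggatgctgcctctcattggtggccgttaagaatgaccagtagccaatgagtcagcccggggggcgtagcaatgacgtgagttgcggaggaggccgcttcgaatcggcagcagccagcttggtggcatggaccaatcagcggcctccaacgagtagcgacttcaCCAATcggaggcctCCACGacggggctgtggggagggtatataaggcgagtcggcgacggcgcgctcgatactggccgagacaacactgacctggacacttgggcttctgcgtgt
Pdia6, chr12:17266479-17266521, + strand: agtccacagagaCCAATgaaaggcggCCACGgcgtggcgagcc
Creld2, chr15:88819508-88819550, + strand: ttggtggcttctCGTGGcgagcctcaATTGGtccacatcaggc
Calr, chr8:84847063-84847105, - strand: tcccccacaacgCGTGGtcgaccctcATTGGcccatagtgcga
Syvn1, chr19:6046520-6046562, + strand: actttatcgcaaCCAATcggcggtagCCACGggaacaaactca
Dnajc3, chr14:118937815-118937857, + strand: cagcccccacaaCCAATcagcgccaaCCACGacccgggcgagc
Canx, chr11:50325788-50325830, - strand: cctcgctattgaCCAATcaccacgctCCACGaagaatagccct
Hsp90b1, chr10:86705521-86705563, - strand: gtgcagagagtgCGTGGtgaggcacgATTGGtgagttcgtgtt
Hsp90b1, chr10:86705626-86705668, - strand: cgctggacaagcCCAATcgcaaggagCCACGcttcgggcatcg
Dnajb11, element II, chr16:22857840-22857874, + strand: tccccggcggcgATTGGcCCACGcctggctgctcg
Herpud1, element II, chr8:94386365-94386399, + strand: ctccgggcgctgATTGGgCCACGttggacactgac
In Creld2, Calr and the nearer site of Hsp90b1 the element lies on the opposite strand and reads as its reverse complement. Hsp90b1 held the element at 2 places. In Hspa5 the element covers bases -65 to -47 counted from the gene's start.

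The 34 genes had 76 probe sets, and the 64 of them that were Present on 6 or more of the 24 arrays were kept. The brightest kept probe set stood for a gene. Of the 33 tested genes, 31 were Present on 24 of 24 arrays, Ern1 on 20 and Edem1 on 15. Pdia5, a protein disulfide isomerase, was the gene not tested: its probe set was Present on no array, with signals of 12 to 74.8. The brightest probe set of Ern1 was also Present on no array, so Ern1 rests on a dimmer probe set with signals of 46.1 to 106. Hspa5 (BiP, the main Hsp70 chaperone of the ER) read 9400 to 16958 over the 24 arrays. Signals of different probe sets are not comparable as levels.

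The labelled tissue was checked against markers of the choroid plexus epithelium. Of 12 on the array 11 were tested, and their summed signal was 81650 to 95382 in ApoE4 and 88177 to 100230 in ApoE3 mice on the high-fat diet, and 80943 to 101182 in ApoE4 and 87998 to 101424 in ApoE3 mice on chow. Whole-array measures also differed between the genotypes. Probe sets called Present made up 59.0% ± 1.14 in ApoE4 and 55.4% ± 1.76 in ApoE3 arrays on the high-fat diet (SD, n = 6 each, exact permutation test, two-sided, adjusted p = 0.0152 over 14 such tests), and 58.3% ± 1.53 in ApoE4 and 54.8% ± 0.574 in ApoE3 arrays on chow (exact adjusted p = 0.0101). The median signal of an array averaged 150.83 in ApoE4 and 173.42 in ApoE3 arrays on the high-fat diet (exact adjusted p = 0.0101). On chow it averaged 152.67 in ApoE4 and 168.64 in ApoE3 arrays (exact adjusted p = 0.0303). The mean log2 signal of the hybridization controls was 11.26 in ApoE4 and 11.63 in ApoE3 arrays on the high-fat diet (exact adjusted p = 0.0253). The chow arrays gave 11.31 in ApoE4 and 11.65 in ApoE3 mice (exact adjusted p = 0.0101). The mean log2 level of brain markers (neurons, oligodendrocytes and astrocytes) was 8.10 in ApoE4 and 8.43 in ApoE3 arrays on the high-fat diet (exact adjusted p = 0.0182), and 8.03 in ApoE4 and 8.22 in ApoE3 arrays on chow (exact adjusted p = 0.115). In such tissue samples fewer cells of a type and less RNA per cell cannot be told apart.

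On the high-fat diet, 8 of the 33 genes passed between the genotypes, 7 of them lower and 1 higher in ApoE4. On the lower side were chaperones and helpers (Hyou1, Dnajb11, Creld2), degradation factors (Os9, Syvn1) and the sensor Ern1, and on the higher side the reductase Dnajc10. Hsp90b1 is counted as lower by its brightest probe set, while its other kept probe set had a higher mean in ApoE4 (2811.2 in ApoE4 and 2218.8 in ApoE3). The share was 24.2%, near the 27.9% of all genes that passed in this comparison, where 17.1% were lower and 10.8% higher in ApoE4. Under quantile normalization 51.2% of the called genes were higher, against 38.7% here (52.9% and 42.5% on chow), and none of the members' calls changed sign. The median log2 difference was -0.07 over the 33 genes and -0.0543 over all genes. Groups did not overlap in 4 of the 33 genes (Dnajc10, Eif2ak3, Syvn1 and Os9), against 8.74% of all genes.

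Os9, a lectin that hands misfolded glycoproteins to the degradation machinery, gave signals of 1477, 1600 and 1704 (lowest, median and highest) in ApoE4 and of 1775, 1940 and 2114 in ApoE3 mice on the high-fat diet. The 6 ApoE4 arrays lay below all 6 ApoE3 arrays. The log2 difference was -0.27 ± 0.0582 (limma, adjusted p = 0.00152), and Os9 passed under each of the alternatives run. Syvn1 (HRD1), the ubiquitin ligase of the same machinery, gave 466, 535 and 590 in ApoE4 and 598, 657 and 854 in ApoE3 mice, again with no overlap, and its log2 difference was -0.35 ± 0.0941 (limma, adjusted p = 0.00782). Its other main partners did not pass. Sel1l, the scaffold of Syvn1, had a log2 difference of -0.06 ± 0.0926, and Edem1, which trims glycans of misfolded proteins, 0.00 ± 0.116. Derl1 and Derl2, membrane proteins of the exit channel, had differences of 0.02 ± 0.0694 and 0.09 ± 0.0869.

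Among the chaperones, Hyou1 (GRP170), which exchanges nucleotide on Hspa5, gave signals of 1221, 1679 and 1939 in ApoE4 and of 1778, 2294 and 4173 in ApoE3 mice on the high-fat diet. The groups overlapped in their ends, and the ApoE3 array of replicate 6 stood far above the others. The log2 difference was -0.53 ± 0.137 (limma, adjusted p = 0.00733), and it passed whichever single array was left out. Without the 4 arrays of lowest hybridization controls, all ApoE4, it did not pass (limma, adjusted p = 0.098). Dnajb11 (ERdj3), a J-domain cochaperone of Hspa5, gave 652, 773 and 969 in ApoE4 and 846, 1036 and 1227 in ApoE3 mice, a log2 difference of -0.39 ± 0.0966 (limma, adjusted p = 0.00507). Creld2, a secreted ER stress protein, gave 663, 784 and 1294 in ApoE4 and 854, 1235 and 1831 in ApoE3 mice, a log2 difference of -0.56 ± 0.158 (limma, adjusted p = 0.0127). For both the medians stood apart while the ranges overlapped. With the hybridization controls as a covariate in limma, Creld2 did not pass.

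Hsp90b1 (GRP94), the Hsp90 of the ER, gave signals of 6885, 7649 and 8351 in ApoE4 and of 8241, 8985 and 10409 in ApoE3 mice, so that the ranges touched only at their ends. The log2 difference was -0.27 ± 0.0904 (limma, adjusted p = 0.028), and without 5 of the 24 single arrays, in turn, it no longer passed. Dnajc10 (ERdj5), a disulfide reductase with a J domain, ran the other way, with 1651, 1788 and 1926 in ApoE4 and 1467, 1572 and 1605 in ApoE3 mice. All ApoE4 arrays lay above all ApoE3 arrays, at a log2 difference of 0.20 ± 0.0553 (limma, adjusted p = 0.0102), which quantile normalization took to an adjusted p of 0.0592.

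Hspa5 itself did not pass on this probe set, with signals of 9400, 11411 and 14860 in ApoE4 and of 11225, 13866 and 16958 in ApoE3 mice and a log2 difference of -0.19 ± 0.107. Sdf2l1, a partner of Dnajb11, was just short of the threshold, with 352, 518 and 763 in ApoE4 and 563, 678 and 835 in ApoE3 mice (-0.38 ± 0.148, limma, adjusted p = 0.0559). So was Dnajc3 (p58IPK), a J-domain cochaperone that also restrains Eif2ak3, at -0.23 ± 0.0898 (limma, adjusted p = 0.0544). Calr, the soluble lectin chaperone calreticulin, gave 4633, 5456 and 7091 in ApoE4 and 6192, 7345 and 8232 in ApoE3 mice (-0.36 ± 0.149, limma, adjusted p = 0.0733). Manf, a secreted ER stress factor with neurotrophic activity, gave 2965, 3442 and 5259 in ApoE4 and 3175, 4660 and 6318 in ApoE3 mice (-0.34 ± 0.149, limma, adjusted p = 0.0893). In all 5 the ApoE4 median lay below the ApoE3 median, with overlapping ranges where signals are given.

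The sensors were dim or moderate. Ern1 (IRE1) gave signals of 46.1, 54 and 74.4 in ApoE4 and of 62.7, 74.8 and 106 in ApoE3 mice on the high-fat diet, a log2 difference of -0.39 ± 0.148 (limma, adjusted p = 0.0473). That call rested near the threshold and was lost in 15 of 24 fits that left out a single array. Eif2ak3 (PERK) gave 460, 540 and 572 in ApoE4 and 583, 607 and 664 in ApoE3 mice. These groups did not overlap, and the fit, which estimates one spread from the arrays of all 4 groups, gave -0.20 ± 0.103 and did not pass (limma, adjusted p = 0.135). Atf6 gave 666, 732 and 789 in ApoE4 and 711, 797 and 862 in ApoE3 mice (-0.12 ± 0.0647, limma, adjusted p = 0.169). Xbp1, the transcription factor activated by Ern1, gave 4326, 5089 and 7096 in ApoE4 and 4708, 5871 and 7926 in ApoE3 mice (-0.15 ± 0.12, limma, adjusted p = 0.36). Herpud1, a membrane protein of degradation that is strongly induced by ER stress in cultured cells, gave 1165, 1452 and 2219 in ApoE4 and 1293, 1445 and 2186 in ApoE3 mice, with medians nearly level (-0.06 ± 0.169). The plot of signals by group shows 12 of these genes array by array.

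**Figure D1:**
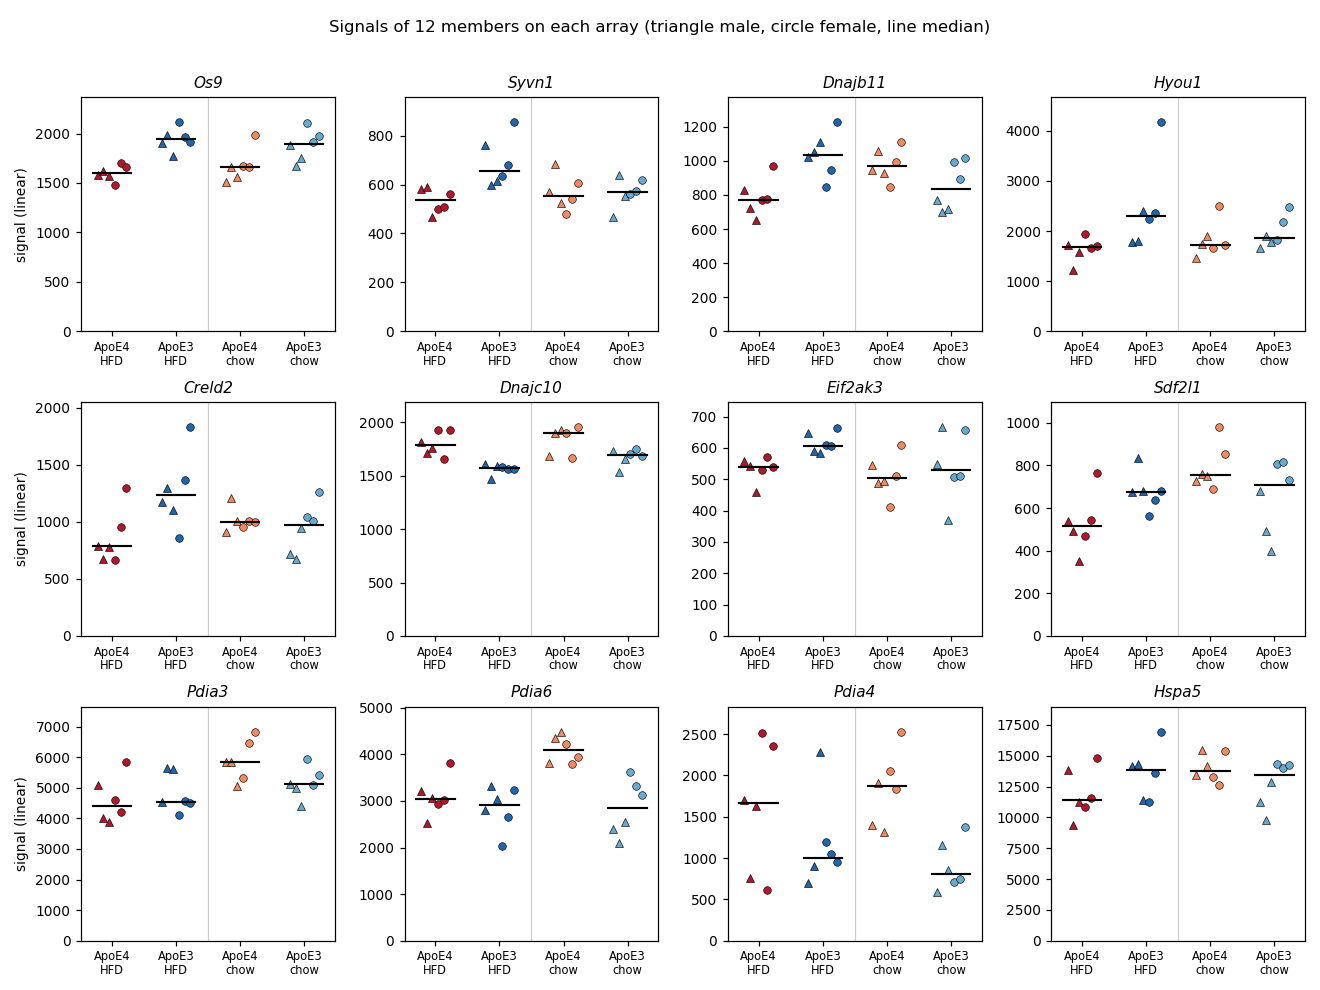
Linear signal (vertical axes, from 0) of 12 ER genes on each of the 24 arrays, in 4 groups along each horizontal axis: ApoE4 and ApoE3 on the high-fat diet (HFD), then ApoE4 and ApoE3 on chow. Triangles are males, circles females and lines group medians, and the 6 ApoE4 arrays of Os9 on the high-fat diet (1477 to 1704) lie below all 6 ApoE3 arrays (1775 to 2114), while for Pdia6 the separation is on chow (3802 to 4488 in ApoE4, 2104 to 3616 in ApoE3).

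Markers of several cell types passed between the genotypes on this diet, where 27.9% of all genes did. Of the 11 tested epithelial markers, Folr1 (0.21 ± 0.0643) and Cldn1 (0.21 ± 0.0806) were higher and Kl (-0.22 ± 0.0797) was lower in ApoE4. Of 5 tested oligodendrocyte markers 3 were lower and 1 higher in ApoE4. Their summed signal was 2752 to 4122 in ApoE4 and 4370 to 5720 in ApoE3 arrays. Mag and Olig1 were Present on no array. Of 7 tested neuronal markers 2 were lower, with sums of 650 to 1651 in ApoE4 and 1206 to 1552 in ApoE3 arrays. Camk2a was Present on no array. Of 9 macrophage markers 5 were lower (sums of 3825 to 5063 in ApoE4 and 3973 to 6034 in ApoE3 arrays), and of 8 markers of smooth muscle and pericytes 5 were lower (7164 to 8458 in ApoE4 and 6989 to 9999 in ApoE3 arrays). Of 5 tested plasma cell and B cell markers, cells known for a large ER, 1 was lower. Their sums were 646 to 1107 in ApoE4 and 942 to 1464 in ApoE3 arrays. Cd79a, Cd79b and Tnfrsf17 were Present on no array. Of 8 endothelial, 7 fibroblast and 6 astrocyte markers 1 each was lower, and 0 of 4 ependymal markers passed. With the mean of the brain markers as a covariate in limma, 2 of the 33 genes passed, against 9.03% of all genes. They were Os9 (-0.24, limma, adjusted p = 0.0431) and Dnajc10 (0.25, limma, adjusted p = 0.0244). In that limma fit Hyou1 (-0.53, adjusted p = 0.0662), Creld2 (-0.47, adjusted p = 0.141), Ern1 (-0.35, adjusted p = 0.241) and Syvn1 (-0.28, adjusted p = 0.131) did not pass. Their differences kept their sign. That of Hyou1 kept its size, while those of Creld2 (-0.56 without the covariate), Ern1 (-0.39) and Syvn1 (-0.35) were smaller with it. Dnajb11 came to -0.21 (adjusted p = 0.222) and Hsp90b1 to -0.09 (adjusted p = 0.581). The part of the macrophage, smooth muscle and plasma cell markers was not tested.

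Several of the genes had further probe sets, and these did not always follow the brightest. On the high-fat diet 18 of the 64 kept probe sets passed, 14 lower and 4 higher in ApoE4 (28.1%, against 26.4% of all 13936 probe sets), and 10 of the 16 genes with more than 1 kept probe set had probe sets of opposite sign. A further probe set of Hspa5 gave signals of 5140, 5993 and 7679 in ApoE4 and 6262, 8123 and 9232 in ApoE3 mice, and unlike the brightest it passed (-0.39 ± 0.1, limma, adjusted p = 0.00702). A pair of dimmer probe sets of Calr also passed, at -0.54 ± 0.128 and -0.56 ± 0.135. The first of them gave 2118, 2490 and 3200 in ApoE4 and 3272, 3710 and 4188 in ApoE3 mice, with no overlap. Probe sets of Xbp1 (-0.42 and -0.46), Dnajc3 (-0.25) and Sec61a1 (-0.30), the pore subunit of the translocation channel, were lower as well, and further probe sets of Serp1 (0.31), Derl1 (0.29) and Dnajc10 (0.52) were higher.

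Hsp90b1 had probe sets that passed in opposite directions. Its dimmer probe set gave 2919, 3639 and 4724 in ApoE4 and 1654, 2340 and 3145 in ApoE3 mice on chow, higher in ApoE4 by 0.63 ± 0.172 (limma, adjusted p = 0.0236), where the brightest gave 6747, 8296 and 10571 in ApoE4 and 8036, 9644 and 11344 in ApoE3 mice. Over all kept probe sets of the list, 5 of 64 passed on chow (7.81%, against 10.2% of all probe sets) and 22 of 64 averaged over diets (34.4%, against 37.6%). Averaged over diets the dimmer probe set of Hsp90b1 was higher by 0.49 ± 0.121 and the brightest lower, at -0.23 ± 0.0643. With the mean of its probe sets in place of the brightest, Hsp90b1 had a log2 difference of 0.04 on the high-fat diet. No direction is therefore given for Hsp90b1 as a gene. Which transcripts each probe set reads was not tested. Averaged over diets Ssr1 was likewise called in both directions, 0.12 ± 0.0479 on the brightest and -0.19 ± 0.0733 on another.

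**Figure D2:**
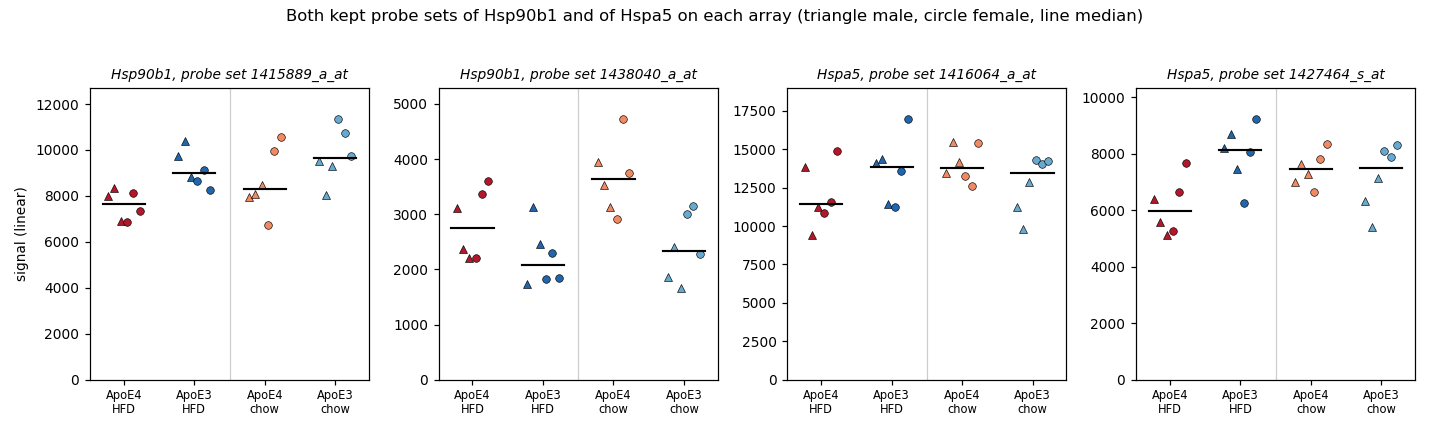
Linear signal (vertical axes, from 0) of both kept probe sets of Hsp90b1 and both of Hspa5 on each array, by group as labelled, with triangles for males, circles for females and lines for medians. On chow the ApoE4 median of Hsp90b1 lies below the ApoE3 median on the left probe set (8296 and 9644) and above it on the next (3639 and 2340), while both probe sets of Hspa5 have a lower ApoE4 median on the high-fat diet (11411 and 13866, and 5993 and 8123).

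On chow, 2 of the 33 genes passed between the genotypes, both higher in ApoE4 (6.06%, against 9.74% of all genes, of which 4.14% were higher and 5.6% lower). The median log2 difference was 0.07 over the 33 genes and -0.0205 over all genes. Pdia6, a protein disulfide isomerase that also tempers Ern1 signalling, gave signals of 3802, 4088 and 4488 in ApoE4 and of 2104, 2840 and 3616 in ApoE3 mice. It was the member whose groups did not overlap on chow, against 3.1% of all genes. Its log2 difference was 0.55 ± 0.119, a 1.46-fold higher signal (limma, adjusted p = 0.0072), and it passed under each alternative run. A dim further probe set of Pdia6 did not follow it. Other markers moved with genotype on chow too: 5 of 8 smooth muscle and pericyte markers were lower in ApoE4 (sums of 7770 to 9018 in ApoE4 and 7721 to 13975 in ApoE3 arrays), as were 2 of 9 macrophage markers (3137 to 4837 in ApoE4 and 3425 to 5469 in ApoE3 arrays). Of the brain markers, 1 of 7 neuronal (621 to 1263 in ApoE4 and 977 to 1276 in ApoE3 arrays) and 1 of 5 oligodendrocyte markers (2079 to 3719 in ApoE4 and 2851 to 3875 in ApoE3 arrays) were lower, and 0 of 11 epithelial markers passed. None of the tested endothelial, fibroblast, astrocyte, ependymal, plasma cell and B cell markers passed on chow, where 9.74% of all genes did. The part of the smooth muscle and macrophage markers was not tested. With the brain markers as a covariate, 2 of the 33 genes passed on chow, against 6.06% of all genes: Pdia6 (0.63, limma, adjusted p = 0.005) and Sdf2l1 (0.51, limma, adjusted p = 0.0196).

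Derl2 gave signals of 728, 828 and 878 in ApoE4 and of 560, 670 and 768 in ApoE3 mice on chow, with a log2 difference of 0.27 ± 0.0869 (limma, adjusted p = 0.0463). The call was lost in 15 of 24 fits that left out a single array, and with the brain markers as a covariate the difference was 0.30 (limma, adjusted p = 0.0602). Pdia4, another disulfide isomerase, had the largest difference on chow, 1.03 ± 0.331, with signals of 1312, 1870 and 2530 in ApoE4 and of 592, 802 and 1376 in ApoE3 mice. It did not pass (limma, adjusted p = 0.0522). Pdia4 was also the most variable of the 33 genes: its residual standard deviation was 0.587 on the log2 scale, larger than that of 99.6% of genes, against a median of 0.172 over the 33 genes and 0.171 over all genes. Dnajc10 and Os9 lay at the other end, with residual standard deviations of 0.0791 and 0.088, larger than those of 2.17% and 4.19% of genes.

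For the other chaperones the signals on chow overlapped between genotypes. Hspa5 gave 12592, 13799 and 15453 in ApoE4 and 9797, 13432 and 14322 in ApoE3 mice (0.15 ± 0.107). Sdf2l1 gave 688, 756 and 981 in ApoE4 and 401, 706 and 818 in ApoE3 mice (0.31 ± 0.148, limma, adjusted p = 0.178). Dnajb11, lower in ApoE4 on the high-fat diet, gave 848, 971 and 1112 in ApoE4 and 699, 832 and 1016 in ApoE3 mice on chow (0.22 ± 0.0966, limma, adjusted p = 0.143). Creld2, Manf and Calr had log2 differences of 0.13 ± 0.158, 0.24 ± 0.149 and 0.17 ± 0.149. Syvn1 read 479, 555 and 682 in ApoE4 and 466, 568 and 639 in ApoE3 mice, with nearly equal medians (-0.01 ± 0.0941). Of the sensors, Ern1 had a difference of -0.27 ± 0.148, Eif2ak3 of -0.08 ± 0.103 and Atf6 of 0.04 ± 0.0647, and Xbp1 of 0.11 ± 0.12 and Herpud1 of -0.08 ± 0.169.

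Averaged over both diets, 11 of the 33 genes passed between the genotypes (33.3%, against 38.1% of all genes), 6 higher and 5 lower in ApoE4, where 14.6% of all genes were higher and 23.5% lower. Besides Dnajc10 (0.16 ± 0.0391), Pdia6 (0.34 ± 0.0843) and Derl2 (0.18 ± 0.0615), the higher ones were Pdia4 (0.69 ± 0.234), the translocon-associated Ssr1 (0.12 ± 0.0476) and Serp1 (0.12 ± 0.046), which binds the Sec61 channel under stress. The lower ones were Os9 (-0.22 ± 0.0412), Hsp90b1 on its brightest probe set, Hyou1 (-0.32 ± 0.0972), Ern1 (-0.33 ± 0.105) and Syvn1 (-0.18 ± 0.0665). Some of these calls lay near the threshold. In 24 fits that each left out a single array, Ssr1 lost its call in 15, Serp1 in 13 and Syvn1 in 9. Only Os9 and Dnajc10 kept their calls in all 14 other settings. Pdia6 lost its call with the mean of a gene's probe sets (limma, adjusted p = 0.125). Hyou1 lost its call with the hybridization controls as a covariate, and with the 3' to 5' ratio of Actb as a covariate. Serp1 gave 3600, 3954 and 4611 in ApoE4 and 3409, 3611 and 4188 in ApoE3 mice on the high-fat diet, and 3538, 3844 and 4404 in ApoE4 and 3289, 3621 and 3816 in ApoE3 mice on chow, a small shift with overlapping ranges on both diets. Ssr1 gave 2584, 3047 and 3559 in ApoE4 and 2519, 2711 and 3168 in ApoE3 mice on the high-fat diet, and 2858, 3084 and 3254 in ApoE4 and 2643, 2935 and 3068 in ApoE3 mice on chow, again with overlap. In the fit with the brain markers as a covariate 3 of the 33 passed (Os9, Dnajc10 and Pdia6), against 1318 of the 8261 genes. Of the calls lost in that fit, Hyou1 (-0.32), Ern1 (-0.30), Derl2 (0.22) and Pdia4 (0.80) had differences about as large or larger, while Hsp90b1 (-0.09), Syvn1 (-0.12), Serp1 (0.10) and Ssr1 (0.08) had smaller ones.

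**Figure D3:**
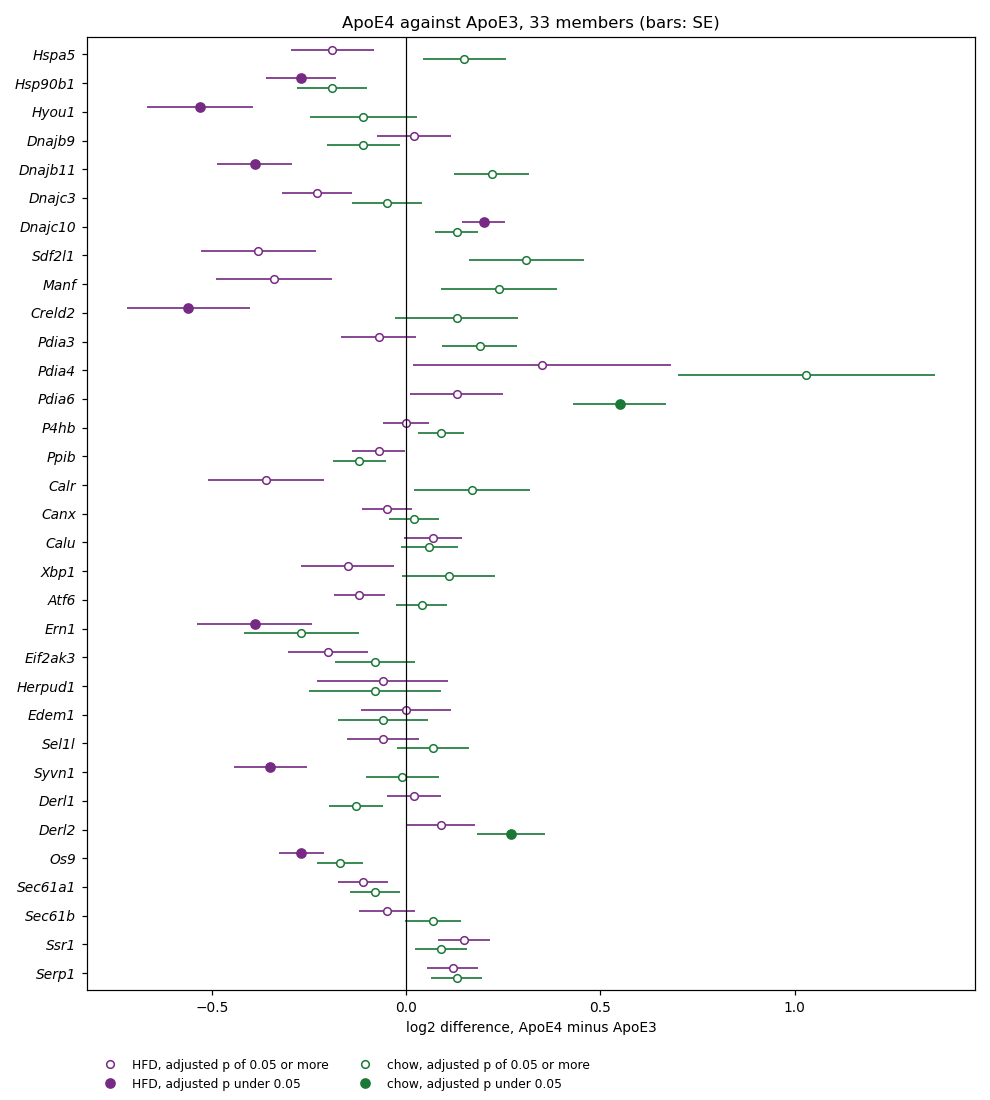
Log2 difference of ApoE4 minus ApoE3 (horizontal axis, bars are SE) for the 33 tested genes (vertical axis, by role from chaperones at the top to the translocation channel at the bottom) on the high-fat diet (HFD, upper point) and on chow (lower point). Filled points passed at an adjusted p under 0.05: 8 on the high-fat diet, of which only Dnajc10 (0.20) is to the right of 0, and on chow Pdia6 (0.55) and Derl2 (0.27), both to the right.

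The diet comparison within ApoE4 mice gave no call, here or in any other gene: 0 of 8261 genes passed in limma. At an unadjusted p under 0.05 there were 10 of the 33 genes (30.3%), all lower on the high-fat diet, against 6.97% of all genes, of which 3.6% were lower. This count was 5 without the ApoE4 array of replicate 6 on chow (6.48% of all genes, in either direction). It was 6 without the ApoE4 array of replicate 5 on the high-fat diet (6.66%). Over all single arrays left out, 5 to 12 of the 33 genes were lower, against 5.69% to 8.93% of all genes in either direction. The count was 9 when the 4 arrays lowest in hybridization controls were left out (8.63%). The median log2 difference was -0.09 over the 33 genes and -0.00583 over all genes. These arrays of ApoE4 mice on the high-fat diet also enter the genotype comparison on that diet, so the 2 comparisons share samples.

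The 10 genes were chaperones and foldases in the main. Sdf2l1 gave signals of 352, 518 and 763 on the high-fat diet and of 688, 756 and 981 on chow in ApoE4 mice, a log2 difference of -0.60 ± 0.148 (limma, adjusted p = 0.348). The high-fat diet arrays lay lower, with a small overlap. In the fit with the brain markers as a covariate it was -0.68 and passed (limma, adjusted p = 0.0382). Pdia3 (ERp57), the disulfide isomerase that works with Calr and Canx on glycoproteins, gave 3864, 4398 and 5835 on the high-fat diet and 5045, 5842 and 6832 on chow (-0.36 ± 0.0968, limma, adjusted p = 0.415). Pdia6 gave 2536, 3040 and 3824 on the high-fat diet and 3802, 4088 and 4488 on chow, with the ranges touching only at the ends (-0.41 ± 0.119). Dnajb11 (-0.32 ± 0.0966), Calr (-0.41 ± 0.149), Hspa5 (-0.24 ± 0.107), Dnajc3 (-0.19 ± 0.0898), the membrane lectin Canx (-0.16 ± 0.0645), the calcium-binding Calu (-0.18 ± 0.074) and Atf6 (-0.14 ± 0.0647) made up the rest.

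In ApoE3 mice the diet comparison had 0 of 33 genes past the threshold (0.23% of all genes passed). At an unadjusted p under 0.05 there were 4 of 33 (12.1%, against 13.4% of all genes). Dnajb11 (0.29 ± 0.0966), Syvn1 (0.27 ± 0.0941) and Creld2 (0.42 ± 0.158) were higher on the high-fat diet and Calu was lower (-0.19 ± 0.074), none below an adjusted p of 0.174. With the brain markers as a covariate the balance turned, to 1 gene higher and 5 lower on the high-fat diet (12.1% of all genes at that p). Of the oligodendrocyte markers Mbp passed (0.80 ± 0.168, limma, adjusted p = 0.0451), and their summed signal was 4370 to 5720 on the high-fat diet and 2851 to 3875 on chow in ApoE3 mice, with no overlap. Creld2 gave 854, 1235 and 1831 on the high-fat diet and 677, 975 and 1262 on chow. The diet groups overlapped in all 33 genes, in ApoE3 mice (0.92% of all genes did not overlap) and in ApoE4 mice (0.145%). The median log2 difference over the 33 genes was 0.04.

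**Figure D4:**
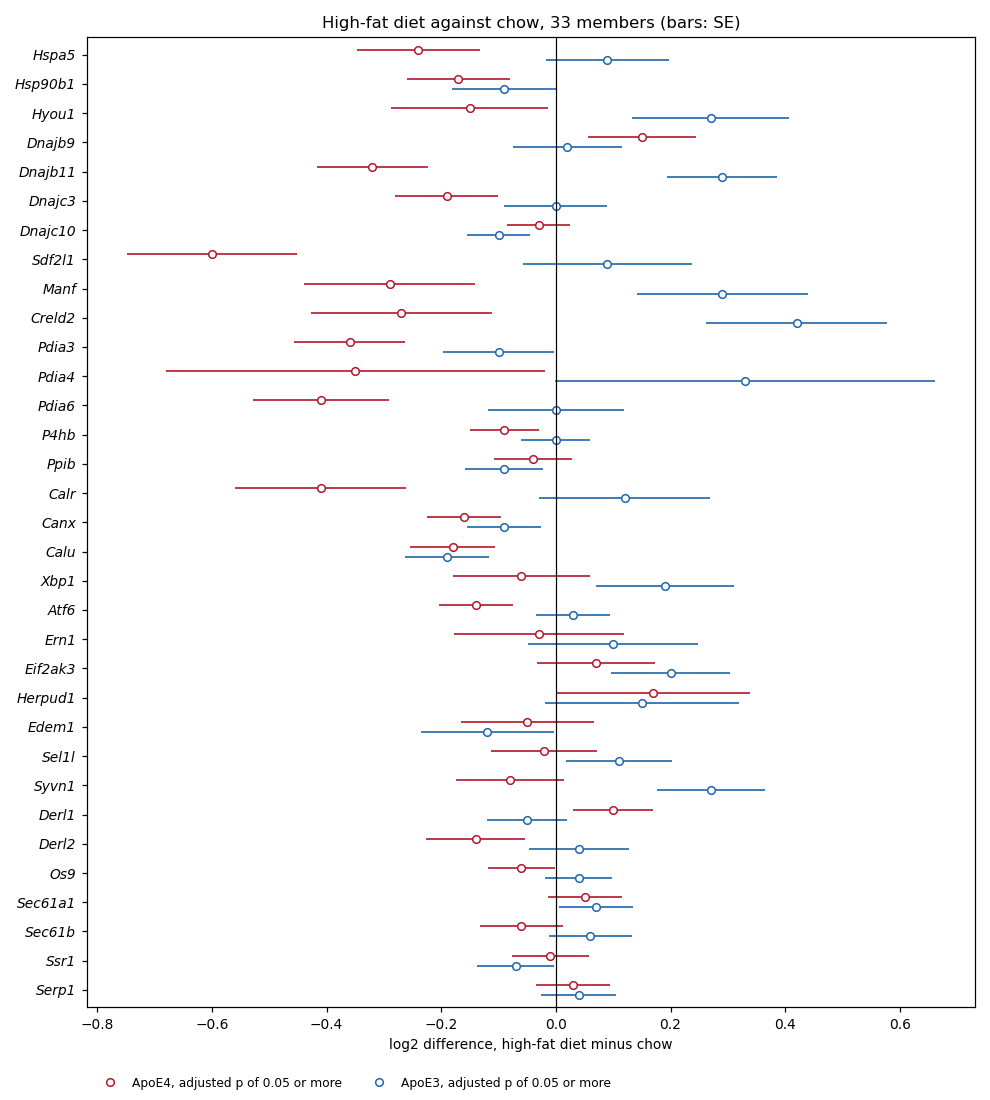
Log2 difference of high-fat diet minus chow (horizontal axis, bars are SE) for the 33 tested genes (vertical axis, in the same order of roles) in ApoE4 mice (upper point) and ApoE3 mice (lower point). No point is filled because none passed at an adjusted p under 0.05; in ApoE4 mice 27 of the 33 genes lie to the left of 0, with Sdf2l1 farthest (-0.60), and in ApoE3 mice 10 do.

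The difference between the diet effects was tested as an interaction, ApoE4 minus ApoE3 on the high-fat diet minus the same on chow. No gene passed, of 33 or of 8261 (limma). At an unadjusted p under 0.05 there were 9 of the 33 genes (27.3%), all negative, against 10.1% of all genes in either direction and 6.63% on the negative side. With single arrays left out, 7 to 12 of the 33 were negative, against 8.41% to 11.5% of all genes in either direction. Dnajb11 had the smallest p, with an interaction of -0.60 ± 0.137 (limma, adjusted p = 0.146), followed by Sdf2l1 (-0.69 ± 0.209) and Creld2 (-0.69 ± 0.223), both above an adjusted p of 0.25. Manf, Syvn1, Calr, Pdia6, Hspa5 and Hyou1 were the others. The genotype difference on the high-fat diet is therefore not shown to differ from that on chow for any of the 33 genes.

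Averaged over genotypes, diet gave 0 of 33 calls (0.0363% of all genes passed). At an unadjusted p under 0.05 there were 6 (18.2%), all lower on the high-fat diet, against 10.7% of all genes in either direction and 4.2% lower. Between females and males 0 of 33 passed, against 1.28% of all genes, with 6 at an unadjusted p under 0.05 (18.2%, against 14.9% of all genes). Hyou1 had the smallest p, higher in females by 0.30 ± 0.0972 (limma, adjusted p = 0.141).

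Among arrays of the same group and sex, part of the list varied together with Hspa5. The slope of each gene on Hspa5 (log2 change of the gene per log2 change of Hspa5, fitted with group means and sex) passed for 12 of 8260 genes (0.145%), and 5 of these were among the 32 members tested beside Hspa5. They were Manf (1.13 ± 0.163, limma, adjusted p = 0.00127), Creld2 (1.20 ± 0.18, adjusted p = 0.00127), Pdia6 (0.87 ± 0.154, adjusted p = 0.00819), Xbp1 (0.86 ± 0.155, adjusted p = 0.00819) and Calr (0.99 ± 0.199, adjusted p = 0.0364). Positive slopes were found in 29 of the 32 members and in 47.6% of all genes. At an unadjusted p under 0.05 there were 15 members, all positive, against 12.3% of all genes in either direction, with 6.05% on the negative side. Of the 5, Creld2, Pdia6 and Calr hold the ER stress response element shown above, and the window of Xbp1 holds no match. Hsp90b1, Dnajc3, Canx and Syvn1 hold the element too, and their slopes did not pass. Whether the element bears on the slope was not tested. The slope call of Calr was lost in 13 of 24 fits that left out a single array, and in 7 of 14 other settings.

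The 7 genes outside the list that passed were Slc35b1 (0.63 ± 0.0995), which carries ATP into the ER for Hspa5, the ER lectin Mlec (0.77 ± 0.15), the cytosolic chaperone Hsph1 (1.13 ± 0.184), Tardbp (0.58 ± 0.11) and Chdh (0.63 ± 0.133) with positive slopes, and Cirbp (-1.41 ± 0.212) and Pqbp1 (-0.69 ± 0.146) with negative ones. Cirbp is a cold-inducible RNA-binding protein. Hspa5 itself deviated by -0.32 to 0.28 from its group and sex mean on the log2 scale. Its residual standard deviation was 0.203, larger than that of 63.6% of genes. Without the 2 arrays farthest from their group's median of Hspa5 (replicate 2 of ApoE3 on chow and replicate 6 of ApoE4 on the high-fat diet) 0 of 8260 genes passed. The slopes were then 1.08 for Manf, 1.11 for Creld2, 0.78 for Pdia6, 0.88 for Xbp1 and 0.75 for Calr, and 13 members were at an unadjusted p under 0.05, against 7.71% of all genes. The number of members that passed was 2 without replicate 4 of ApoE3 on the high-fat diet and 3 without replicate 2 of ApoE3 on chow. It was 3 without replicate 6 of ApoE4 on the high-fat diet, and 2 with the mean of the epithelial markers as a covariate. No count of all genes that passed is given for these fits, so the drops cannot be read as particular to the list. At an unadjusted p under 0.05 these fits held, in that order, 12, 16, 13 and 15 positive members, and 1 negative member in the first. The shares of all genes, in either direction, were 12.2%, 9.67%, 10.7% and 6.42%. Genes on 1 array share its RNA and its scaling, so the slopes describe these arrays.

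**Figure D5:**
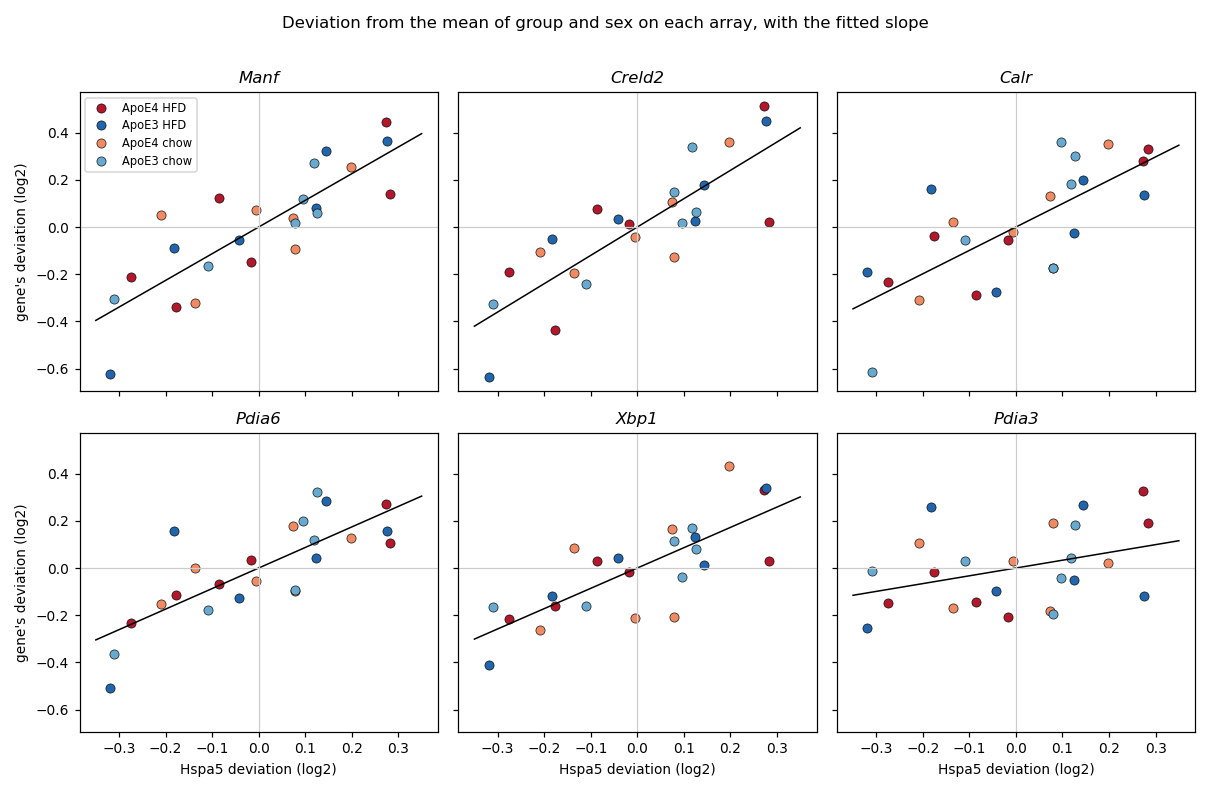
Deviation of 6 genes (vertical axes, log2) against that of Hspa5 (horizontal axes, log2) from the mean of group and sex on each of the 24 arrays, with colours for the 4 groups and the fitted slope as a line. Manf, Creld2, Calr, Pdia6 and Xbp1 have slopes of 1.13, 1.20, 0.99, 0.87 and 0.86, and Pdia3 is shown for contrast with a slope of 0.33 that did not pass (limma, adjusted p = 0.462).

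Other genes of the same pathways came from 6 lists. Their counts stand beside the shares of all genes that passed between the genotypes. These were 27.9% on the high-fat diet, 9.74% on chow and 38.1% averaged over diets. Of 11 tested targets of Eif2ak3 and Atf4, 2 were higher and 1 lower in ApoE4 on the high-fat diet, and 1 was higher on chow. Averaged over diets 1 was higher and 3 were lower. Asns, asparagine synthetase, was Present on all 12 ApoE4 arrays and on none of the 12 ApoE3 arrays. Its mean signal on the high-fat diet was 659.6 ± 69.1 in ApoE4 mice, against 180.4 ± 16.4 in ApoE3 mice (limma, adjusted p = 7.64e-13). The chow arrays gave 646.8 ± 103.1 in ApoE4 mice, against 181.4 ± 25.6 in ApoE3 mice (limma, adjusted p = 1.11e-12; errors are SD over 6 arrays). Nfe2l2 (NRF2), a transcription factor of the antioxidant response, was also higher on the high-fat diet (0.16 ± 0.0571). Ppp1r15a (GADD34), which reverses the block on translation, was lower on the high-fat diet (-0.36 ± 0.0938). Averaged over diets Atf4 itself (-0.44 ± 0.137), Ppp1r15a (-0.17 ± 0.0663) and Chac1 (-0.26 ± 0.104) were lower, and Asns was higher (1.76 ± 0.0727). Ddit3 (CHOP), named here after its values were seen because it is the best known target of this branch, gave signals of 258, 276 and 431 in ApoE4 and 213, 245 and 401 in ApoE3 mice on the high-fat diet and did not pass.

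The next lists stand beside the same shares of all genes (27.9% on the high-fat diet and 9.74% on chow). Of 17 tested genes of translocation and signal peptide removal, 1 was higher (Ssr4, 0.24 ± 0.0781) and 1 lower (Srpr, -0.16 ± 0.0591) in ApoE4 on the high-fat diet. On chow 0 of them passed. Of 14 genes of glycan transfer and trimming, Alg5 was higher (0.49 ± 0.0845) and Alg2 lower (-0.54 ± 0.0898) on the high-fat diet, and 0 passed on chow. Of 22 tested genes listed as further foldases, cochaperones or transport factors, 1 was higher and 3 lower on the high-fat diet. Among the lower were the collagen prolyl hydroxylase P4ha1 (-0.55 ± 0.103) and the thiol oxidase Ero1a (-0.22 ± 0.0513). On chow 2 of the 22 were higher, the transport factors Lman2 (0.31 ± 0.0766) and Sec23b (0.22 ± 0.0636), and Ero1a was lower (-0.19 ± 0.0513). Of 17 tested genes on the degradation list 1 was higher (Ngly1, 0.21 ± 0.0689) and 1 lower on the high-fat diet. The lower one was Sec61a2 (-0.34 ± 0.107), a relative of the channel subunit Sec61a1. On chow the ubiquitin ligase Rnf5 was higher (0.45 ± 0.116). Of 12 further sensors and membrane factors 2 were higher and 2 lower on the high-fat diet, with the stress transducer Creb3l1 (-0.60 ± 0.11) and wolframin, Wfs1 (-0.31 ± 0.0819), on the lower side, and 0 passed on chow. Diet, the interaction and the slope on Hspa5 gave 0 calls in each of the 6 lists.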

How the data were processed

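Expression was measured on 24 Affymetrix Mouse430A_2 arrays, 6 per group. The intensity values, on a linear scale, were made by the authors with GCOS 1.4, per the submitters' processing notes, and each array has a trimmed mean near 500. The sources used here do not name the algorithm or its settings. The authors' detection calls (Present, Marginal or Absent) served as a filter, and their detection p-values were left aside. Of 22690 probe sets, 64 controls were set aside, 20380 had 1 gene symbol, 691 several and 1555 none in the platform annotation. Only those of 1 gene were named.

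Signals were taken to log2 after adding 16. A probe set was kept if Present on at least 6 of 24 arrays, and the brightest kept probe set on average stood for its gene, which gave 8261 of 12393 genes. All 24 arrays entered a limma 3.58.1 fit in R 4.3.3 (empirical Bayes with trend and robust estimation) of group means and sex, and contrasts gave 8 comparisons. Two-sided p-values were adjusted by Benjamini-Hochberg over all genes of a comparison. The slope on Hspa5 added its log2 signal to the same model. Array measures were compared by exact permutation tests in Python 3.11.15 (scipy 1.17.1, numpy 2.4.6, pandas 2.3.3; figures with matplotlib 3.10.9). The fitting code was tested on simulated data. Precision is limited by how many arrays there were.

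The members, lists and comparisons were chosen with earlier results of these data known. Signals are given for members that passed a genotype, diet or interaction comparison and for a set named for their roles (Hspa5, Hsp90b1, Pdia4, Pdia6, Calr, Sdf2l1, Creld2, Manf, Hyou1, Xbp1, Herpud1 and the sensors). Other members are given by counts, or by single values that were chosen after they were seen. From each pathway list at most 4 genes that passed were named per comparison, by smallest p. The alternatives were other pseudocounts (1 and 64), a filter of 12 arrays or none, quantile normalization, a fit without sex, a replicate block, a fit on the compared arrays alone, array weights, the mean of a gene's probe sets, the brain or the epithelial marker mean as a covariate, and leaving out each array in turn. Covariates for hybridization controls and the Actb 3' to 5' ratio, and fits without the 4 arrays of lowest hybridization controls, were added after the data were seen.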

Additional observations from a re-analysis of the deposited data

Results flagged for a closer look

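In 8 of 132 sets of 6 arrays (33 genes in 4 groups) the highest or lowest array stood apart, by a gap to its nearest neighbour that was large for the group's range (Dixon's criterion at the 95% level). Chance flags about 1 in 20 such sets. Hyou1, the exchange factor of Hspa5, read 4173 on replicate 6 of ApoE3 on the high-fat diet, against 1778 to 2406 on the other arrays of the group (a gap of 0.646 of the range). Without that array Hyou1 was still lower in ApoE4. Dnajc10 read 1467 on replicate 2 of ApoE3 on the high-fat diet, against 1562 to 1605 on the others (0.699). Eif2ak3 read 459.6 on replicate 3 of ApoE4 on the high-fat diet, against 531 to 572 (0.66).

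On chow, P4hb, the main protein disulfide isomerase, read 2897 on replicate 5 of ApoE4, against 3220 to 3394 (0.666), and 2632 on replicate 2 of ApoE3, against 3052 to 3265 (0.687). Replicate 5 of ApoE4 on chow was also high in Ern1, with 82.7 against 46.7 to 57.4 (0.653). Replicate 6 of that group was high in Atf6, with 916.6 against 747 to 806 (0.63), and in Os9, with 1985 against 1508 to 1669 (0.632). Replicate 5 of ApoE4 on chow is also among the 4 arrays of lowest hybridization controls, and whether that bears on these values was not tested.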

How the results depend on the processing

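The number of members that passed between genotypes on chow was 2, and it was 4 with the mean of a gene's probe sets, 5 with the hybridization controls as a covariate, 1 with the 3' to 5' ratio of Actb added to the fit, and 4 without the 4 arrays of lowest hybridization controls (replicates 2, 5 and 6 of ApoE4 on the high-fat diet and 5 of ApoE4 on chow). In the fit with the brain markers as a covariate it was 2 on the high-fat diet in place of 8, 3 averaged over diets in place of 11, and 1 for diet in ApoE4 in place of 0. For the slope on Hspa5 it was 5, and 2 under quantile normalization, 2 with the epithelial marker mean, 0 without the 2 arrays farthest from their group's median of Hspa5 and 2 without the 4 arrays of lowest hybridization controls. When single arrays were left out, it ranged from 1 to 3 on chow (1 without replicate 1 of ApoE3, 3 without replicate 6 of ApoE4), from 6 to 10 on the high-fat diet, from 8 to 13 averaged over diets and from 2 to 6 for the slope, and stayed at 0 for diet, the interaction and sex. Of 998 values of the 26 single calls under alternatives, 844 stayed past the threshold in the same direction, 151 no longer passed and 3 reversed. The reversed values came with the mean of the probe sets: 0.04 for Hsp90b1 on the high-fat diet, 0.13 for Hsp90b1 averaged over diets and -0.04 for Ssr1 averaged over diets. Their probe sets run in opposite directions. For the rest the cause was not tested. Arrays of different groups share only a replicate number: same-numbered arrays deviated together (r over 0.1) in 2 of 36 pairs. With the replicate number as a block, 2 members passed on chow and 10 on the high-fat diet (799 and 2285 of all genes). In that fit 11 passed averaged over diets (3121 of all genes), 5 for the slope (24 of all genes) and 0 for diet and the interaction. Where no count or share of all genes is given, a changed number of members cannot be read as particular to the list. Dim probe sets, Ern1 and Edem1 above all, limit what can be seen of their genes.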
